A study of Marchantia polymorpha and Arabidopsis thaliana with 54 samples.

Results

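Cysteine-rich receptor-like kinases (CRKs) are a plant family of receptor-like protein kinases, and 40 Arabidopsis thaliana genes of this family were followed here by RNA-seq in seedlings. They were taken from the count table by their gene identifiers, and all 40 were found among its 27655 genes. The libraries labelled eTK come from a mutant line, and by their label HSFA1A, HSFA1B and HSFA1D, which encode heat shock transcription factors, are knocked out in it. Col-0 is the wild-type accession it is set against. Whole seedlings were 7 days old and had grown on Murashige and Skoog agar with sucrose at 22 °C in continuous light. The 4 groups were eTK after 1 h at 37 °C (3 libraries), eTK left at 22 °C (6), Col-0 after 1 h at 37 °C (3) and Col-0 left at 22 °C (6). The groups at 37 °C are called heat and those at 22 °C control. Libraries 4 to 6 of each control group belonged to batch 2 by their labels, and every other library to batch 1, so no heat library belongs to batch 2. The labels name a single mutant line and do not say how the alleles were made.

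A CRK has an extracellular part with cysteine-rich DUF26 domains, a membrane-spanning segment and an intracellular kinase. The family is best known from immunity, where pathogens, salicylic acid and reactive oxygen species raise the transcripts of many members. CRK2 phosphorylates the NADPH oxidase RBOHD, which makes apoplastic reactive oxygen species. CRK28 associates with the co-receptor BAK1 and the flagellin receptor FLS2, and CRK36 with the cytoplasmic kinase BIK1. Raised expression of CRK4, CRK5, CRK13 or CRK20 has been linked to defence or to cell death in leaves. The promoters of defence genes often hold W-boxes, with the core TTGAC, which WRKY transcription factors bind, whereas heat shock factors bind heat shock elements, of which GAANNTTC is a core.

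Of the 40 genes, 35 lay on chromosome 4, 3 on chromosome 1, 1 on chromosome 3 and 1 on chromosome 5 in the TAIR10.1 annotation. A tandem cluster at chr4:12117491-12191704 (74.2 kb) held 19 of them, from CRK5 at one end to CRK24 at the other. The 250 bases before the annotated start of 5 members are shown because these members carry the main patterns of the sections that follow. CRK5, CRK13 and CRK20 had among the lowest eTK to Col-0 ratios in control, CRK11 had the most W-box cores of the family, and CRK42 was the member with a higher level in eTK. The windows are chr4:12120221-12120470 for CRK5, chr4:12143859-12144108 for CRK11 and chr4:12151639-12151888 for CRK13, all read from the minus strand, and chr4:12174483-12174732 for CRK20 and chr5:16151272-16151521 for CRK42, read from the plus strand. Sequences are RefSeq TAIR10.1, written 5′ to 3′, and capitals mark TTGAC or, where the core lies on the other strand, GTCAA.
CRK5: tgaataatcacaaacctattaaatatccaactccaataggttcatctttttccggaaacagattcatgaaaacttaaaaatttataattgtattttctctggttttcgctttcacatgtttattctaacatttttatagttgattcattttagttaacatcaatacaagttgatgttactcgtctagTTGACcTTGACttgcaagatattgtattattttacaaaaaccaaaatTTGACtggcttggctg
CRK11: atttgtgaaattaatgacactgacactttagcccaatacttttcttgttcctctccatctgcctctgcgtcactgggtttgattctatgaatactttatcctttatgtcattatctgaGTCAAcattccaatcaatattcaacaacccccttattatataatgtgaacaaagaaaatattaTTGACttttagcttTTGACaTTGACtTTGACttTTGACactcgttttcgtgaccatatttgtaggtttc
CRK13: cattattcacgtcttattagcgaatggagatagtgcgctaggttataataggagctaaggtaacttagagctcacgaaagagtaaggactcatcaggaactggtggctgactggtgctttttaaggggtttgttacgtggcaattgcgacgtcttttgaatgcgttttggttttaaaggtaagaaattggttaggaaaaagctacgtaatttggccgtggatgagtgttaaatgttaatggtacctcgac
CRK20: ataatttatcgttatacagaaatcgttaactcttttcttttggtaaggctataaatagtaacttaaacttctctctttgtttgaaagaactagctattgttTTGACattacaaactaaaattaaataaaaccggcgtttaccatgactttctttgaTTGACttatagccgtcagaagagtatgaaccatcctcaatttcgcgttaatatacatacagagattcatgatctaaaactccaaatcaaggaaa
CRK42: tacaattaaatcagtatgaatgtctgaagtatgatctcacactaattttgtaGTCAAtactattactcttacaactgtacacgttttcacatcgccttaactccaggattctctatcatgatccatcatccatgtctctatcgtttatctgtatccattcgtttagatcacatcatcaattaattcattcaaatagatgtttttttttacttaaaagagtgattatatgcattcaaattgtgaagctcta

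The W-box core TTGAC, searched on both strands from 250 bases before to 50 after the start, was present in 30 of the 40 members (75%), and in 50.5% of 27443 promoters of nuclear protein-coding genes. At least 3 copies were found in 9 members (22.5%) and in 4.86% of all promoters. CRK11 had 7 copies, at positions -132, -69, -55, -49, -43, -36 and +19 from the start, of which the last lies past the printed window. CRK5 had 3 copies, at -63, -57 and -16, CRK20 had 2, at -149 and -94, and CRK42 had 1, at -198. CRK13 had none in this window, as did CRK1, CRK2, CRK3, CRK12, CRK21, CRK22, CRK28, CRK30 and CRK40. The heat shock element core GAANNTTC was present in 6 members (15%), namely CRK17, CRK24, CRK26, CRK31, CRK32 and CRK33, and in 11.6% of all promoters. No W-box core overlapped a heat shock element core in a member. A match of letters is not a binding site.

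The libraries held between 58370609 and 110875442 counts. The 36 pairs of replicates within groups all differed beyond sampling noise. Normalisation by trimmed means (TMM) gave mean factors of 1.02 in eTK heat, 1.11 in eTK control, 0.655 in Col-0 heat and 1.11 in Col-0 control. The low factors of Col-0 heat bear on every comparison that uses this group. With library size alone, the median log2 fold change of all genes moved to -0.75 for heat in Col-0, 0.63 for the difference of the heat responses and 0.64 for eTK against Col-0 in heat, and changes are given relative to the TMM scale. The transcripts of HSFA1B (log2 fold change -3.09) and HSFA1D (-1.39) were lower in eTK control than in Col-0 control, whereas that of HSFA1A was higher (0.96). Since a knocked-out gene may still be transcribed, this does not settle the genotype, and the libraries are called by their label. Markers of root, shoot and stomatal lineage were detected in every group. The labels do not state whether replicates were grown separately, and p-values therefore cover the spread between these libraries, which may be technical.

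Of the 40 members, 37 passed the filter on low counts and were tested. CRK1, CRK33 and CRK37 did not pass, with 4, 9 and 34 counts in all 18 libraries together. Levels are in CPM, a count scaled to the size of its library with TMM factors, and levels between genes are compared as CPM per kilobase of coding length. In Col-0 control the highest levels were those of CRK19, at 30.3 ± 1.85 CPM per kb, CRK18, at 29.8 ± 10.4, CRK21, at 27.2 ± 4.04, CRK29, at 26.8 ± 4.32, and CRK22, at 26.6 ± 4.38 (SD, n = 6). Neighbours in this order differed by less than their spread. These 5 genes held 44.2% of the summed level per kb of the family in Col-0 control, whereas 16 members lay under 1 CPM per kb and 11 above 10. In eTK control the 5 highest members were CRK19, CRK21, CRK18, CRK40 and CRK30. The tandem cluster held 4 of the 5 highest members of Col-0 control and also CRK7 and CRK24, which had means under 1 CPM in that group.

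**Figure D1:**
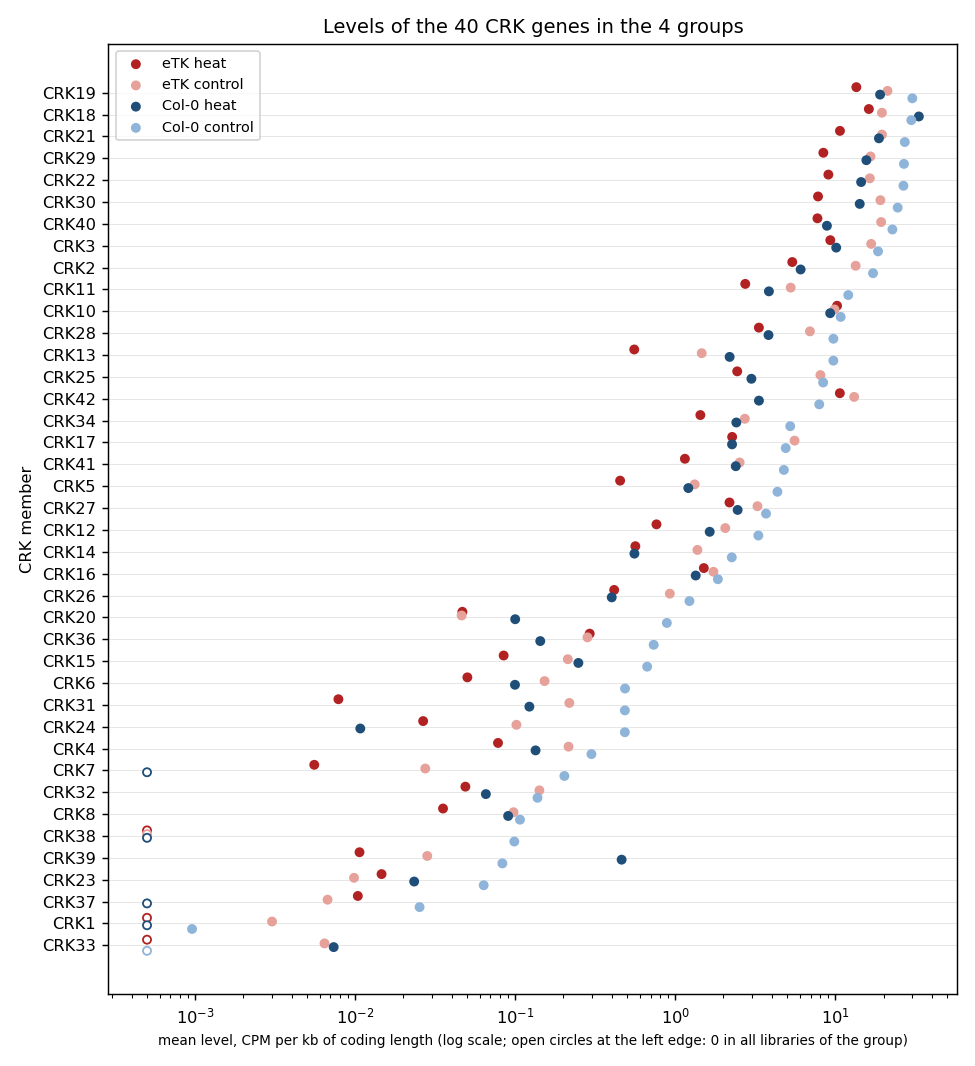
Level of each of the 40 CRK genes in CPM per kb of coding length (x axis, logarithmic, with open circles at the left edge for 0) in eTK heat, eTK control, Col-0 heat and Col-0 control, with genes ordered by their Col-0 control mean and points as group means (eTK heat n = 3, eTK control n = 6, Col-0 heat n = 3, Col-0 control n = 6). CRK19, CRK18, CRK21, CRK29 and CRK22 stand at the top, and 16 members lie under 1 CPM per kb in Col-0 control.

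Summed over the family, the level was 261 ± 11.2 CPM in eTK heat (SD, n = 3), 465 ± 47.0 CPM in eTK control (n = 6), 367 ± 71.8 CPM in Col-0 heat (n = 3) and 643 ± 104 CPM in Col-0 control (n = 6). The 3 heat libraries of eTK held between 252 and 273 CPM, below all 6 of its control libraries, which held between 414 and 517. The heat libraries of Col-0 held 307, 348 and 446 CPM, below its control libraries, which held between 496 and 761. In bulk RNA, fewer cells of a type and less RNA per cell cannot be told apart.

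Heat was compared with control within each line, the question being which genes respond to 1 h at 37 °C. In eTK, 20 of the 37 tested CRKs were lower in heat (54.1%) and 0 were higher by edgeR's quasi-likelihood test at a Benjamini-Hochberg adjusted p below 0.05, against 28.7% of all 22696 tested genes lower and 27% higher. In Col-0, 23 were lower (62.2%) and 2 were higher (5.41%), against 32.4% of all genes lower and 31.2% higher. Counts over the tested members are a description, since a member with low counts could pass the filter through its higher group alone. Among the 24 members with a mean of at least 1 CPM over all libraries, 17 were lower and 0 higher in eTK, and 18 were lower and 1 higher in Col-0. In a separate fit to the 19581 genes with such a mean, 6103 were lower and 5750 higher in eTK. In Col-0, 6772 of them were lower and 6639 higher. The median log2 fold change of the tested CRKs was -0.82 in eTK and -0.99 in Col-0, beside -0.01 and -0.04 for all genes. A fall of at least 2-fold was called for 10 members in eTK (10.3% of all genes) and for 15 in Col-0 (15.5% of all genes). With library size alone, 21 were lower (56.8%; 32.5% of all genes) and 0 higher in eTK, and 31 were lower (83.8%; 67.4% of all genes) and 1 higher in Col-0. At an unadjusted p under 0.05, 1 member was higher in eTK heat, and DESeq2 also called 1. Against the batch 1 controls alone, where 33 members were tested, 20 were lower and 1 higher in eTK (28.9% and 27.3% of all genes), and 22 were lower and 2 higher in Col-0 (32.4% and 31.6% of all genes). In 21 of the 37 tested members every eTK heat library lay below every eTK control library (23.7% of all genes), and in 0 above (23.2%). In 18 every Col-0 heat library lay below every Col-0 control library (25.1% of all genes), and in 1 above (23.6%).

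**Figure D2:**
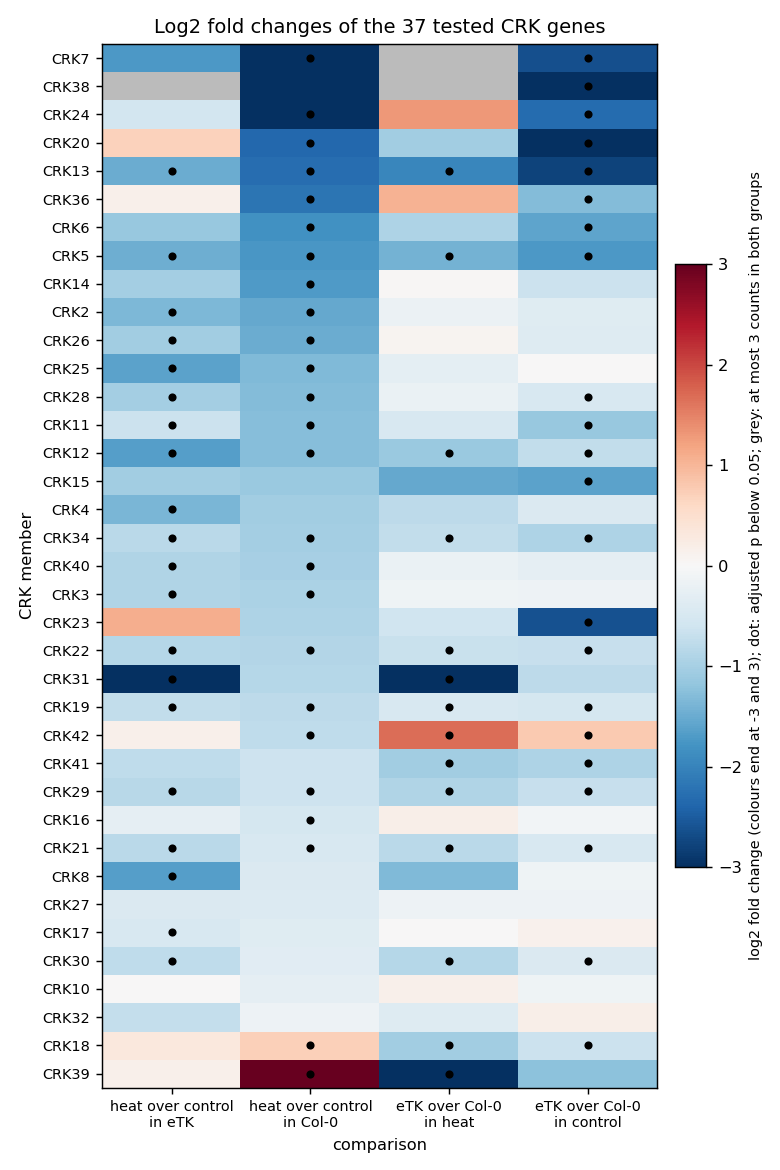
Log2 fold changes (colour scale) of the tested CRK genes (rows) in 4 comparisons (columns), heat against control in eTK and in Col-0 and eTK against Col-0 in heat and in control, with a dot on each gene called at an adjusted p below 0.05, colours ending at -3 and 3, and grey where both groups had 3 counts or fewer. Most cells are on the lower side; with library size alone eTK against Col-0 in heat has 24.3% of members called higher and 8.11% lower, where all genes have 67.3% and 7.35%. In these columns CRK42 is higher in eTK in both conditions, and CRK18 has a log2 fold change of 0.71 in Col-0 heat, or -0.01 with library size alone, where the median of all genes is -0.75.

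Both lines shared 15 members that were lower in heat, namely CRK2, CRK3, CRK5, CRK11, CRK12, CRK13, CRK19, CRK21, CRK22, CRK25, CRK26, CRK28, CRK29, CRK34 and CRK40, where 22.5% of all genes were lower in both lines. The call of CRK11 in eTK was lost without any 1 of the eTK heat libraries, without eTK control library 1, 2 or 3 and without Col-0 control library 3 or 6, at values between -0.54 and -0.69 (adjusted p between 0.052 and 0.121). That of CRK26 in eTK was lost without eTK heat library 1 or 2. CRK10, CRK15, CRK23, CRK27, CRK32, CRK38 and CRK41 were called in neither line. In Col-0, CRK6, CRK7, CRK14, CRK16, CRK20, CRK24, CRK36 and CRK42 were lower without a call in eTK, and in eTK, CRK4, CRK8, CRK17, CRK30 and CRK31 were lower without a call in Col-0. The call of CRK8 in eTK was lost without eTK heat library 2 or eTK control library 2 or 3. A call in one line alone does not show that the lines differ, which the test of the difference addresses further on.

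CRK2 (AT1G70520), the kinase that acts on RBOHD, had 12.2, 8.97 and 10.3 CPM in eTK heat, against a lowest value of 20.9, a median of 26.0 and a highest of 33.0 CPM in eTK control. The Col-0 heat libraries had 8.49, 10.2 and 16.8 CPM, against a lowest value of 28.6, a median of 33.7 and a highest of 36.9 CPM in Col-0 control. Heat and control libraries did not overlap in either line. On the log2 scale the fold change was -1.34 (SE 0.19, adjusted p = 1.37e-05) in eTK and -1.53 (SE 0.20, adjusted p = 2.69e-06) in Col-0. CRK3, its neighbour on chromosome 1, changed by -0.91 (SE 0.15) in eTK and -0.94 (SE 0.15) in Col-0.

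CRK28 (AT4G21400), the partner of BAK1 and FLS2, had 7.05, 6.80 and 6.63 CPM in eTK heat, against between 11.1 and 16.2 CPM (median 14.5) in eTK control. Levels in Col-0 heat were 5.87, 8.27 and 9.39 CPM, against between 14.8 and 23.0 CPM (median 20.4) in Col-0 control. Again no heat library reached a control library. Its fitted log2 fold change was -1.02 (SE 0.16, adjusted p = 3.72e-05) in eTK and -1.30 (SE 0.17, adjusted p = 2.2e-06) in Col-0. CRK29, whose protein is 81.5% identical to that of CRK28 and whose annotated gene overlaps it by 470 bases on the same strand, changed by -0.83 (SE 0.13) in eTK and -0.62 (SE 0.13) in Col-0. How reads that fit both genes were counted was not given in the sources used here.

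CRK5 (AT4G23130, chr4:12117491-12120220), linked to cell death and defence, had 0.923, 0.570 and 1.21 CPM in eTK heat, against between 1.91 and 3.22 CPM (median 2.54) in eTK control. In Col-0 heat it had 2.31, 2.20 and 2.69 CPM, against between 5.06 and 12.3 CPM (median 9.36) in Col-0 control. Each group of heat libraries lay below its controls, and the Col-0 heat values lay among the eTK control values. It changed by a log2 fold change of -1.45 (SE 0.31, adjusted p = 0.000733) in eTK and -1.76 (SE 0.30, adjusted p = 6.23e-05) in Col-0.

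CRK13 (AT4G23210, chr4:12148673-12151638), another member linked to defence, had 0.955, 1.04 and 1.36 CPM in eTK heat, against between 1.00 and 3.81 CPM (median 3.57) in eTK control. The Col-0 heat libraries had 3.24, 2.1 and 7.92 CPM, against between 7.53 and 33.0 CPM (median 20.7) in Col-0 control. The groups overlapped in both lines, through a single control library in each case. The log2 fold change was -1.49 (SE 0.57, adjusted p = 0.0361) in eTK and -2.29 (SE 0.56, adjusted p = 0.00187) in Col-0. The call in eTK was lost in 8 of the 18 removals of a single library, among them each of the 3 eTK heat libraries, with log2 fold changes between -1.38 and -1.65.

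CRK12 and CRK25, for which no role is stated here, had the lowest ratios in eTK among the members above 1 CPM. CRK12 had 1.42, 1.66 and 1.45 CPM in eTK heat, against between 2.83 and 7.01 CPM (median 3.55) in eTK control, a log2 fold change of -1.65 (SE 0.23, adjusted p = 9.15e-06). CRK25 had 6.64, 4.57 and 4.00 CPM in eTK heat, against between 10.7 and 21.4 CPM (median 17.9) in eTK control, a log2 fold change of -1.60 (SE 0.36, adjusted p = 0.00104). In neither did a heat library reach a control library. In Col-0 their log2 fold changes were -1.27 (SE 0.23) and -1.31 (SE 0.37), and both were called.

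CRK20 (AT4G23280, chr4:12174733-12177576), which is linked to immunity, had 0.0329, 0.127 and 0.121 CPM in eTK heat, against between 0.0589 and 0.143 CPM (median 0.0886) in eTK control. Levels in Col-0 heat were 0.126, 0.0512 and 0.422 CPM, against between 0.159 and 3.93 CPM (median 1.49) in Col-0 control. The eTK groups overlapped at a level near the limit of detection, with heat library 1, at 2 counts, below the controls, and in Col-0 1 heat library lay above the lowest control library. Its fitted log2 fold change was 0.70 (SE 0.89, adjusted p = 0.522) in eTK and -2.36 (SE 0.76, adjusted p = 0.0115) in Col-0. The call in Col-0 was lost without Col-0 heat library 1 (-2.09, adjusted p = 0.0509), without Col-0 heat library 2 (-1.92, adjusted p = 0.0561) and without Col-0 control library 3 (-1.83, adjusted p = 0.0557). The coding bases of CRK20 are 90.3% identical to those of CRK19, which had between 28.0 and 63.9 CPM in Col-0, so reads of CRK20 are uncertain where the counting could split the pair.

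CRK36 (AT4G04490), the partner of BIK1, had 0.725, 0.522 and 0.483 CPM in eTK heat, against between 0.246 and 1.11 CPM (median 0.494) in eTK control. In Col-0 heat it had 0.168, 0.154 and 0.528 CPM, against between 0.551 and 3.12 CPM (median 1.00) in Col-0 control. The groups overlapped in eTK and did not overlap in Col-0. It changed by a log2 fold change of 0.15 (SE 0.58, adjusted p = 0.844) in eTK and -2.20 (SE 0.71, adjusted p = 0.0118) in Col-0. The call in Col-0 was lost without Col-0 heat library 1 (-1.91, adjusted p = 0.0535) or library 2 (-1.91, adjusted p = 0.0528).

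CRK14 had 1.22, 1.39 and 0.725 CPM in eTK heat, against between 2.39 and 3.68 CPM (median 2.54) in eTK control, and 0.715, 0.256 and 2.32 CPM in Col-0 heat, against between 1.82 and 7.57 CPM (median 3.91) in Col-0 control. Its log2 fold change was -1.03 (SE 0.46, adjusted p = 0.0693) in eTK and -1.70 (SE 0.50, adjusted p = 0.00651) in Col-0. CRK4, linked to cell death, had a log2 fold change of -1.38 (SE 0.50, adjusted p = 0.0257) in eTK, lost in 2 removals of a single library, and of -1.04 (SE 0.51, adjusted p = 0.0839) in Col-0. CRK6 and CRK7, for which a part in protection against oxidative stress has been described, were called in Col-0 only, CRK6 at -1.82 (SE 0.75, adjusted p = 0.0412). The call of CRK6 was lost in 7 removals of a single library, that of CRK7 in 3 and that of CRK16 in 3.

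CRK7 had 0 counts in the Col-0 heat libraries together, against 0, 8, 34, 52, 104 and 6 counts in Col-0 control libraries 1 to 6. It was at least 16.0-fold lower in heat over all control libraries (adjusted p = 0.0319), but at least 6.17-fold against the batch 1 controls alone and at least 9.46-fold without Col-0 control library 5. The call was lost without any 1 of the Col-0 heat libraries, and CRK7 did not pass the filter without Col-0 control library 3, 4 or 5. These bounds and those for CRK38 set 3 counts over the group in place of 0, and may be too high since read mates appear to have been counted singly. CRK24 had 2 counts in Col-0 heat and 392 in Col-0 control, of which 86 were in batch 1, with an adjusted p of 0.00464. CRK10, a close relative of CRK6 and CRK7 in the cluster, was called in neither line: its log2 fold change was 0.02 (SE 0.19, adjusted p = 0.951) in eTK and -0.26 (SE 0.20, adjusted p = 0.26) in Col-0, at levels between 13.3 and 27.0 CPM in every library of both lines.

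CRK18 and CRK39 were the 2 members called higher in Col-0 heat. CRK18 had 54.8, 66.7 and 76.0 CPM in Col-0 heat, against 31.7, 42.4 and 51.0 CPM in the batch 1 libraries of Col-0 control and 67.6, 79.5 and 82.2 CPM in those of batch 2. Within batch 1 the heat libraries lay above the control libraries, and over both batches they overlapped. On the log2 scale the fold change was 0.71 (SE 0.13, adjusted p = 0.000139) with TMM factors and -0.01 (adjusted p = 0.967) with library size alone, where the median of all genes was -0.75. In eTK it was 0.32 (SE 0.14, adjusted p = 0.054). CRK39 had 0.757, 0.614 and 1.37 CPM in Col-0 heat, against between 0 and 0.589 CPM (median 0.0771) in Col-0 control, a log2 fold change of 4.26 (SE 0.98, adjusted p = 0.000943). Its Col-0 heat libraries lay above all controls. In eTK heat it had 4 counts over 3 libraries. The coding bases of CRK39 are 87.7% identical to those of CRK40, so reads of CRK39 are uncertain where the counting could split the pair.

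**Figure D3:**
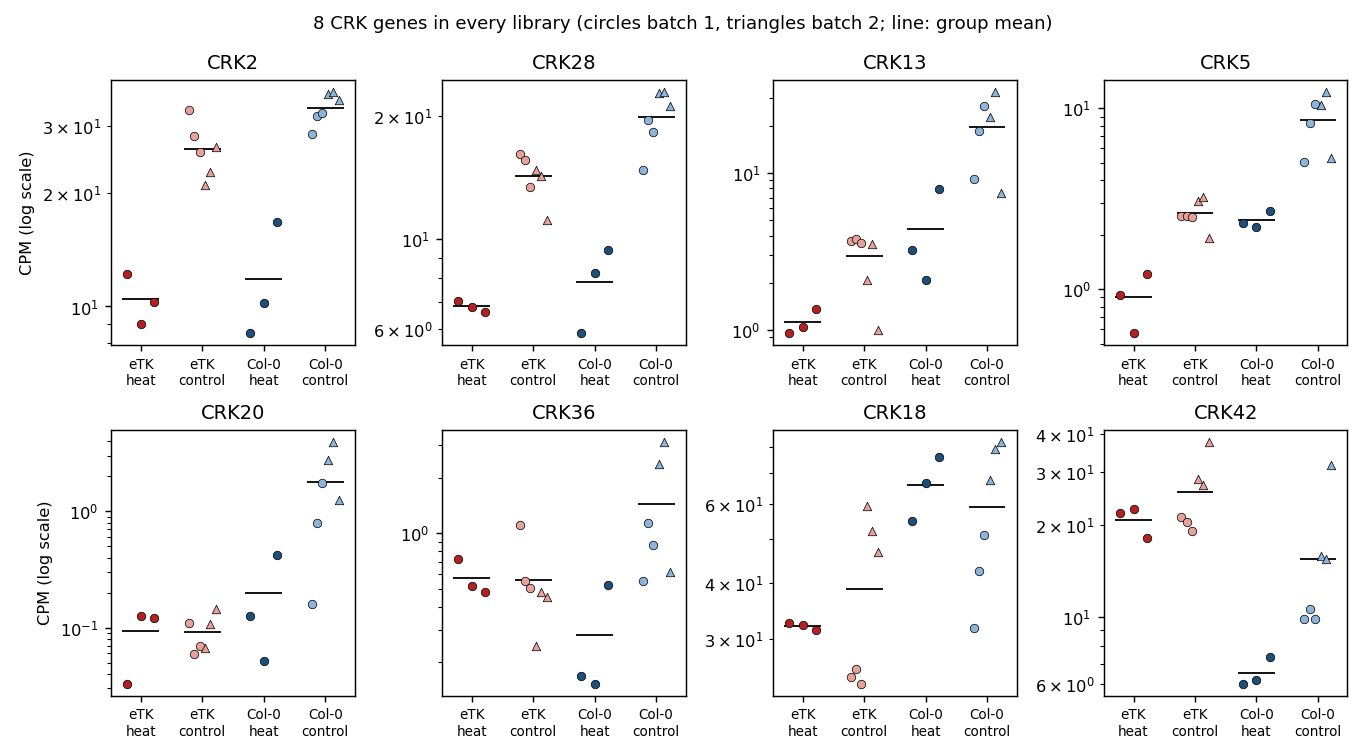
Level in CPM (y axis, logarithmic) of 8 CRK genes in every library, in the order eTK heat, eTK control, Col-0 heat and Col-0 control, with circles for batch 1 libraries, triangles for batch 2 and a line at the group mean. Heat libraries of CRK2 and CRK28 lie below the controls of their line, CRK42 stands lowest in Col-0 heat, and CRK18 is higher in Col-0 heat than in its batch 1 controls on the TMM scale (with library size alone its log2 fold change is -0.01 and the median of all genes -0.75).

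The spread between libraries followed the same libraries in many members. Among the 3 Col-0 heat libraries, library 3 held the highest value of 31 of 35 members (88.6%), against 36.8% of all genes. Among the Col-0 control libraries, library 1 held the lowest value of 24 of 37 members (64.9%; 15.4% of all genes), and libraries 5 and 6 held the highest of 17 and 14 (45.9% and 37.8%; 12.6% and 24.4% of all genes). Root markers moved with heat as well: their summed level lay between 832 and 986 CPM in eTK heat, against 2101 to 3959 CPM in eTK control, and between 1315 and 2658 CPM in Col-0 heat, against 2821 to 8034 CPM in Col-0 control, with 6 of 6 markers detected in every group. The 3 stomatal lineage markers summed to between 40.5 and 44.6 CPM in eTK heat, against 32.9 to 47.7 CPM in eTK control, and to between 15.7 and 16.4 CPM in Col-0 heat, against 37.9 to 49.0 CPM in Col-0 control. The 4 shoot markers summed to between 22811 and 24679 CPM in eTK heat, against 26576 to 35146 CPM in eTK control. In Col-0 heat they summed to between 25126 and 30990 CPM, against 19740 to 34841 CPM in Col-0 control. Single genes differed within these sums. The log2 fold changes of the shoot markers in heat ran from -3.06 to 0.35 in eTK and from -3.54 to 0.40 in Col-0. Those of the stomatal lineage markers ran from -1.47 to 0.48 in eTK and from -2.21 to -0.35 in Col-0. The part of these differences in the CRK results was not tested.

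The difference between the heat responses, eTK minus Col-0, was tested as an interaction. It was called for 2 of the 37 tested members, 1 higher and 1 lower (2.7% each), against 12.5% of all genes higher and 12.6% lower. The median difference over the members was 0.08 on the log2 scale, and that over all genes 0.00. With library size alone, 17 members were higher (45.9%) and 1 lower (2.7%), against 63.1% of all genes higher and 4.51% lower.

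CRK42 (AT5G40380, chr5:16151522-16155215) had 21.9, 22.6 and 18.1 CPM in eTK heat, against between 19.1 and 37.5 CPM (median 24.2) in eTK control. The Col-0 heat libraries had 6.01, 6.20 and 7.34 CPM, against between 9.81 and 31.5 CPM (median 13.0) in Col-0 control. The groups overlapped in eTK and were apart in Col-0. Its heat response was 0.15 (SE 0.20, adjusted p = 0.558) in eTK and -0.75 (SE 0.22, adjusted p = 0.00589) in Col-0, and the difference was 0.90 (SE 0.27, adjusted p = 0.0222). The difference lost its call without eTK heat library 2 (0.84, adjusted p = 0.0572), without Col-0 heat library 1 (0.84, adjusted p = 0.058) and without Col-0 heat library 2 (0.86, adjusted p = 0.0566). It was 0.67 (adjusted p = 0.0055) within batch 1, and 0.67 (adjusted p = 0.136) in a model with a term for each group and batch.

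CRK31 (AT4G11470) had 0, 0.0475 and 0 CPM in eTK heat, against between 0.190 and 0.716 CPM (median 0.457) in eTK control. Levels in Col-0 heat were 0.168, 0.256 and 0.317 CPM, against between 0.233 and 2.05 CPM (median 0.849) in Col-0 control. The eTK heat libraries lay below all others. The difference of the responses was -3.03 (SE 1.02, adjusted p = 0.0358), and its SE may be too small at such counts. The call was lost without eTK heat library 1 or 3 or without Col-0 heat library 2 or 3, at values between -2.45 and -2.99 (adjusted p between 0.0653 and 0.117). The coding bases of CRK31 are 87.9% identical to those of CRK32. Without Col-0 heat library 3, which held the highest value of most members, 6 members had a higher response in eTK and 0 a lower one. In that setting 2975 of all 22904 tested genes were higher and 2857 lower.

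The lines were compared in control, the question being what the line labelled eTK differs in before heat. Of the 37 tested CRKs, 21 were lower in eTK (56.8%) and 1 was higher (2.7%), against 13.8% of all genes lower and 13.4% higher. Of the 24 members with a mean of at least 1 CPM, 13 were lower and 1 was higher. In the fit to the 19581 genes with such a mean, 2649 were lower and 2864 higher. The median log2 fold change was -0.64 over the tested members, beside 0.01 over all genes, and -0.48 over the 24. A difference of at least 2-fold was called lower for 11 members (4.38% of all genes). Of these 11, only CRK5, CRK11 and CRK13 were among the 24. The rest had low counts, and such a member could pass the filter through Col-0 control alone. In 7 members every eTK control library lay below every Col-0 control library (6.19% of all genes), and in 0 above (4.27%). Within batch 2, 20 of 34 tested members were lower (10.6% of all genes), and within batch 1, 11 of 33 (10.8% of all genes). Col-0 control also serves as the control of heat in Col-0, so a low or high value in these libraries moves both comparisons.

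CRK20 had between 0.0589 and 0.143 CPM in the 6 eTK control libraries, against 0.159, 0.788, 1.74, 2.78, 3.93 and 1.24 CPM in Col-0 control libraries 1 to 6. All eTK libraries lay below all Col-0 libraries, which themselves spanned more than an order of magnitude. The log2 fold change was -4.11 (SE 0.55, adjusted p = 1.84e-05). It was -4.64 within batch 2 and -3.48 within batch 1.

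CRK13 had 3.69, 3.81, 3.59, 2.1, 3.54 and 1.00 CPM in eTK control libraries 1 to 6, against 9.24, 18.6, 26.7, 22.8, 33.0 and 7.53 CPM in Col-0 control. The groups did not overlap, and Col-0 libraries 1 and 6 were the lowest of their group. It changed by a log2 fold change of -2.77 (SE 0.41, adjusted p = 6.26e-05). It was -3.27 within batch 2 and -2.29 within batch 1. CRK5 had 2.55, 2.53, 2.51, 3.06, 3.22 and 1.91 CPM in eTK control, against 5.06, 8.29, 10.5, 10.4, 12.3 and 5.32 CPM in Col-0 control. These groups did not overlap either, and Col-0 libraries 1 and 6 were again the lowest. The log2 fold change of CRK5 was -1.71 (SE 0.22, adjusted p = 8.13e-06), with -1.78 within batch 2 and -1.64 within batch 1.

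CRK15 had between 0.272 and 0.573 CPM (median 0.400) in eTK control, against between 0.403 and 2.27 CPM (median 1.17) in Col-0 control, and the groups overlapped. Its log2 fold change was -1.59 (SE 0.37, adjusted p = 0.00305), with -1.86 (adjusted p = 0.0421) within batch 2 and -1.32 (adjusted p = 0.0603) within batch 1. CRK36 was lower in eTK by a log2 fold change of -1.30 (SE 0.46, adjusted p = 0.0429), with -2.39 (adjusted p = 0.0214) within batch 2 and -0.25 (adjusted p = 0.724) within batch 1, and its call was lost in 10 of the 18 removals of a single library, at values between -1.0 and -1.35. CRK11, the member with 7 W-box cores, had 10.4, 9.14, 9.26, 11.8, 10.3 and 12.3 CPM in eTK control, against 12.1, 16.4, 21.0, 30.3, 38.6 and 26.4 CPM in Col-0 control. Only Col-0 library 1 lay among the eTK values. The log2 fold change of CRK11 was -1.13 (SE 0.19, adjusted p = 0.000226).

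CRK28 differed by -0.48 (SE 0.12, adjusted p = 0.00511) and CRK29 by -0.68 (SE 0.09, adjusted p = 2.03e-05). For CRK2 the difference was -0.36 (SE 0.14, adjusted p = 0.0612), with -0.64 (adjusted p = 0.00298) within batch 2 and -0.09 within batch 1. CRK6 (-1.59) and CRK7 (-2.65) were called lower. The call of CRK7 was lost in 7 removals of a single library, and CRK7 did not pass the filter without Col-0 control library 3, 4 or 5. CRK30 lost its call in 7 removals. CRK4 (-0.44, adjusted p = 0.388) and CRK10 (-0.13, adjusted p = 0.562) were not called. CRK38 had 0 counts in all 9 eTK libraries, against 0, 14, 10, 25, 54 and 0 counts in Col-0 control libraries 1 to 6. It was at least 34.8-fold lower in eTK control (adjusted p = 0.0203), at least 20.0-fold without Col-0 control library 5, and at least 26.3-fold within batch 2 and 8.21-fold within batch 1. Without Col-0 control library 3, 4 or 5 it did not pass the filter, and DESeq2 did not call it (adjusted p = 0.201). In Col-0 heat it also had 0 counts and was not called against control (adjusted p = 0.177).

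CRK42 was the 1 member called higher in eTK control. It had 21.3, 20.5, 19.1, 28.3, 27.1 and 37.5 CPM in eTK control libraries 1 to 6, against 9.83, 10.6, 9.81, 15.9, 15.4 and 31.5 CPM in Col-0 control. In both lines batch 2 and library 6 were the highest, and Col-0 library 6 lay among the eTK values. On the log2 scale the fold change was 0.79 (SE 0.15, adjusted p = 0.000806), with 0.56 (adjusted p = 0.207) within batch 2 and 1.02 (adjusted p = 9.66e-06) within batch 1.

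**Figure D4:**
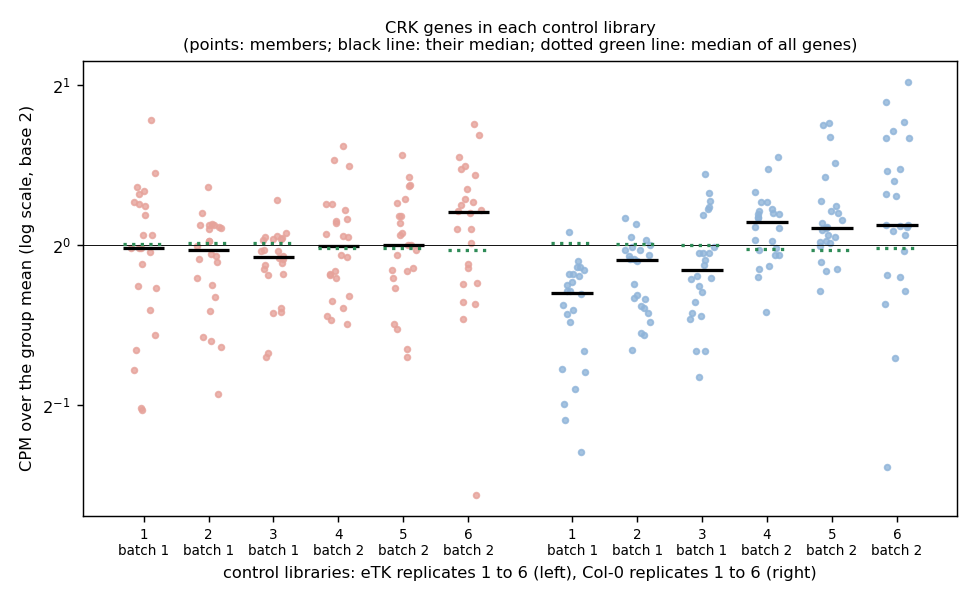
Ratio of each control library to the mean of its group (y axis, logarithmic) for the 24 CRK genes with a mean of at least 1 CPM, in eTK control and Col-0 control libraries 1 to 6, with points as genes, black lines at their medians and dotted green lines at the medians of all genes. The medians of the batch 1 libraries of Col-0 control lie between 0.815 and 0.939 and those of batch 2 between 1.08 and 1.11, whereas all genes lie between 0.980 and 1.01.

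In heat, 13 of the 37 tested CRKs were lower in eTK than in Col-0 (35.1%) and 1 was higher (2.7%), against 23.1% of all genes lower and 23.3% higher. Of the 24 members with a mean of at least 1 CPM, 11 were lower and 1 was higher. In the fit to the 19581 genes with such a mean, 4684 were lower and 4889 higher. With library size alone, where the median of all genes was 0.64, 3 members were lower (8.11%) and 9 higher (24.3%), against 7.35% of all genes lower and 67.3% higher. The median log2 fold change was -0.49, and -0.61 over the 35 members left when CRK7 and CRK38, which had 3 counts or fewer in both groups, are set aside. In 12 members every eTK heat library lay below every Col-0 heat library (24.8% of all genes), and in 1 every one lay above (26.3%). A fall of at least 2-fold was called for 7 (8.21% of all genes). Of the 13 lower members, 11 were also lower in control, namely CRK5, CRK12, CRK13, CRK18, CRK19, CRK21, CRK22, CRK29, CRK30, CRK34 and CRK41, where 8.24% of all genes were lower in both conditions.

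CRK42, the 1 member called higher, had 21.9, 22.6 and 18.1 CPM in eTK heat, against 6.01, 6.20 and 7.34 CPM in Col-0 heat, a log2 fold change of 1.68 (SE 0.23, adjusted p = 1.09e-05). CRK18 had 32.6, 32.2 and 31.4 CPM in eTK heat, against 54.8, 66.7 and 76.0 CPM in Col-0 heat, a log2 fold change of -1.04 (SE 0.15, adjusted p = 1.44e-05). CRK5 was lower by -1.41 (SE 0.34, adjusted p = 0.00238) and CRK12 by -1.10 (SE 0.25, adjusted p = 0.00139) on the log2 scale. CRK13 was lower by -1.97 (SE 0.62, adjusted p = 0.0157), a call lost without eTK heat library 1 (-1.85, adjusted p = 0.052) or Col-0 heat library 3 (-1.26, adjusted p = 0.123). CRK41 was lower by -1.05 (SE 0.37, adjusted p = 0.0295), a call lost without eTK heat library 2 or 3 and without Col-0 heat library 3 (-0.33, adjusted p = 0.402). The calls of CRK19 and CRK34 were lost in 4 and 3 removals. CRK39 had 4 counts in eTK heat and 112 in Col-0 heat, and was lower in eTK (adjusted p = 0.00166). CRK2 (-0.17, adjusted p = 0.521), CRK28 (-0.20, adjusted p = 0.38), CRK10 (0.14, adjusted p = 0.599) and CRK36 (1.05, adjusted p = 0.256) were not called, and with library size alone the values of CRK2 and CRK28 were 0.47 and 0.44.

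Batch 2 was compared with batch 1 in the control libraries. In eTK control, 5 members were higher in batch 2 (13.5%) and 3 were lower (8.11%), against 11.7% of all genes higher and 13.1% lower. In Col-0 control, 12 were higher (32.4%) and 0 lower (0 also at an unadjusted p under 0.05), against 15.6% of all genes higher and 14.9% lower. CRK17, CRK18, CRK30, CRK40 and CRK42 were higher in both lines, where 6.89% of all genes were. CRK17, which RefSeq lists as EMB1290, had 24.2, 21.7 and 26.9 CPM in batch 2 of eTK control, against 8.25, 8.77 and 10.5 CPM in batch 1. In Col-0 control it had 15.9, 17.8 and 27.4 CPM in batch 2, against 8.52, 9.35 and 9.32 CPM in batch 1. The batches did not overlap in either line. Its fitted log2 fold change was 1.40 (SE 0.16, adjusted p = 4.34e-06) in eTK and 1.17 (SE 0.16, adjusted p = 3.9e-05) in Col-0. The annotated genes of CRK17 and CRK16 overlap by 1190 bases on the same strand, so the levels of both are uncertain where reads fit both.

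CRK30 was higher in batch 2 by 1.11 (SE 0.18, adjusted p = 0.0002) and CRK18 by 1.09 (SE 0.14, adjusted p = 1.9e-05) on the log2 scale in eTK control. In Col-0 control CRK31 was higher by 2.40 (SE 0.44, adjusted p = 0.000525) and CRK24 by 1.89 (SE 0.68, adjusted p = 0.0418). The count in Col-0 was 6 without Col-0 control library 1, and that in eTK was 4 without eTK control library 1 and 5 without eTK control library 5. Of all 22682 genes in the first case, 2792 were higher and 2502 lower in Col-0. In eTK, 1858 and 1808 of 22665 genes were without library 1, and 2222 and 2241 of 22671 without library 5. The batch difference itself was called as unlike between the lines, eTK minus Col-0, for 0 members by edgeR, against 2.24% of all genes (508). At an unadjusted p under 0.05, 8 were lower and 0 higher, and the median over the tested members was -0.52, beside -0.01 over all genes. The share of all genes at that unadjusted threshold is not given, so the 8 are a description. Of the 37 tested members, 28 were below 0, so the shared batch term may be approximate for the CRKs. Without Col-0 control library 6, 2 members were called, and without eTK control library 6, 1 was. Of all genes, 201 were higher and 359 lower of 22655 in the first case, and 298 and 718 of 22652 in the second.

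By position, the 19 members of the tandem cluster were lower in eTK control in 14 cases and higher in 0, with a median log2 fold change of -0.73. In heat, 9 of them were lower in eTK (28.7% of all genes) and 13 in Col-0 (32.4%), with 0 and 1 higher (27% and 31.2%). Of the 20 annotated genes next to the cluster at lower coordinates, 16 were tested in control, of which 3 were lower in eTK and 4 higher, with a median of 0.15. At higher coordinates 12 of 20 were tested, of which 3 were lower and 1 was higher, with a median of 0.06. For heat in eTK, 4 of the 16 were lower and 3 higher (median -0.09), and 2 of the 12 were lower and 5 higher (0.34). For heat in Col-0, 7 of the 16 were lower and 3 higher (-0.52), and 3 of the 12 were lower and 5 higher (-0.10). Inside the cluster lie AT4G23170, which the annotation describes as a DUF26 protein, and AT4G23271, neither of them a member. Both were called lower in eTK control and in heat in both lines. The log2 fold change of AT4G23170 was -0.96 in eTK control, -0.82 for heat in eTK and -1.77 for heat in Col-0. For AT4G23271 it was -1.76 for heat in eTK and -2.70 for heat in Col-0. In smaller groups of chromosome 4, 2 of 4 tested members at AT4G04, 2 of 4 at AT4G11 and 2 of 3 at AT4G21 were lower in eTK control and 0 were higher. Of the 7 tested among the other 8 members, 1 was lower and 1, CRK42, was higher. Over all genes 13.8% were lower and 13.4% higher. Protein identity between 39 members ranged from 28.1% to 84.9% (median 45.4%), CRK1 being left out.

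**Figure D5:**
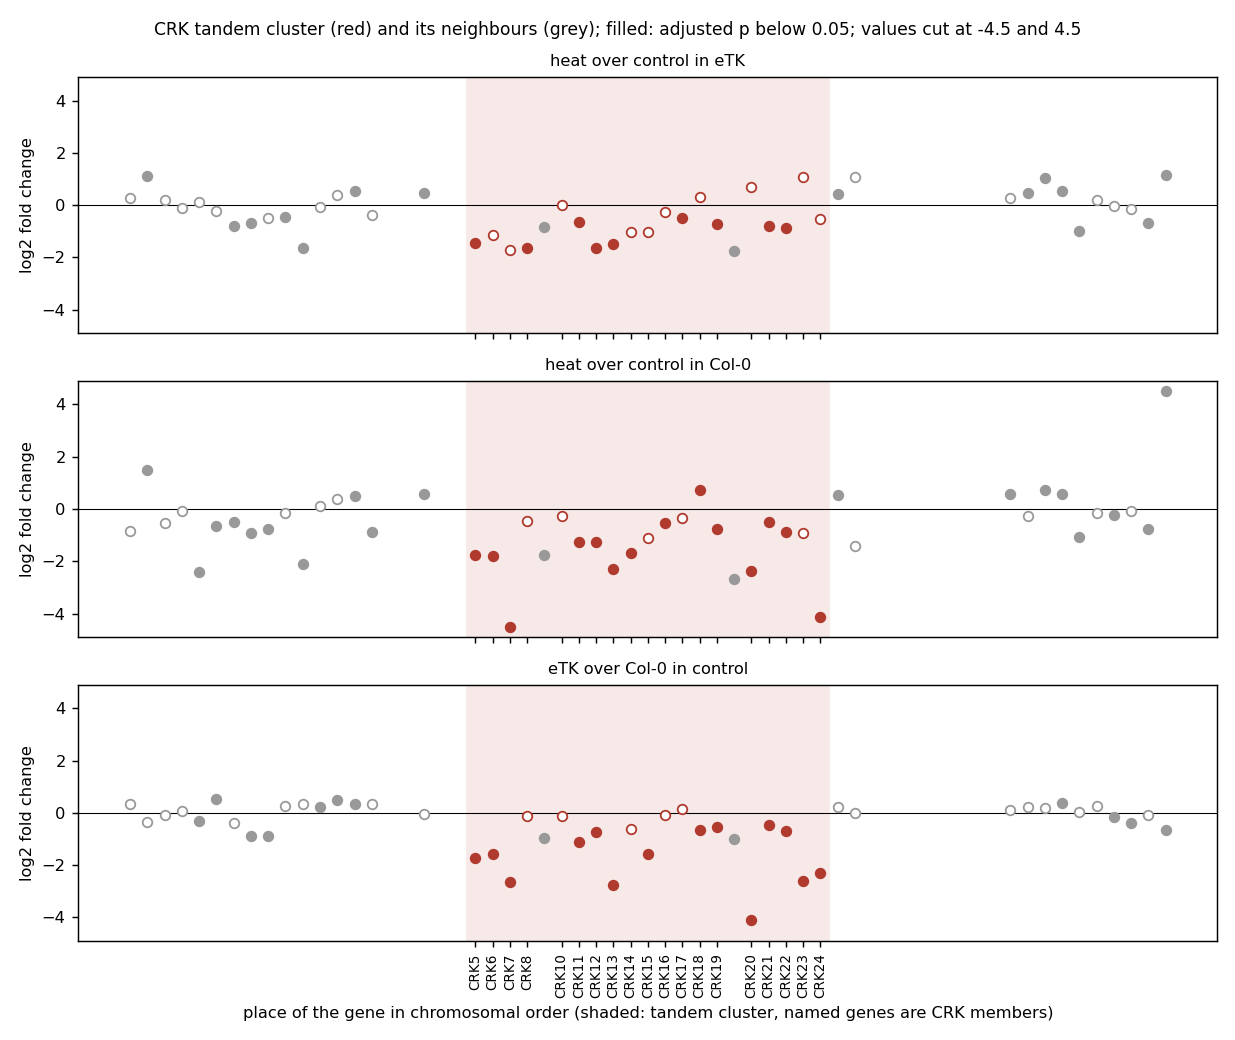
Log2 fold changes (y axis) of the tandem cluster's members and of the genes on either side, in chromosomal order (x axis, gene rank), for heat in eTK, heat in Col-0 and eTK against Col-0 in control, with members in red, other genes in grey and filled points for genes called at an adjusted p below 0.05; values are drawn no further than 4.5 from 0. In the control comparison 14 of the 19 members are called lower in eTK, against 3 of 16 and 3 of 12 tested neighbours on the 2 sides.

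Presence of the W-box core was set beside the calls. In eTK, the 20 members lower in heat held it in 11 cases and the 17 others in 17. In Col-0, the 23 members lower in heat held it in 15 cases and the 14 others in 13. For eTK against Col-0 in control, the 21 lower members held it in 15 cases and the 16 others in 13. CRK11 and CRK5, with 7 and 3 cores in the sequences printed above or just past them, and CRK13, with none, were called lower in heat in both lines and in eTK control. In eTK heat, the calls of CRK11 and CRK13 were each lost in 8 of the 18 removals of a single library.

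Genes that act with CRKs in pattern recognition were counted from a list of 14, all tested. In heat, 7 were lower and 3 higher in eTK (28.7% and 27% of all genes), and 9 were lower and 4 higher in Col-0 (32.4% and 31.2%). In control, 9 were lower in eTK than in Col-0 and 0 higher (13.8% and 13.4% of all genes), with a median log2 fold change of -0.40, and in heat 5 were lower and 0 higher (23.1% and 23.3%). At an unadjusted p under 0.05, 0 of them were higher in either condition. The batch difference, eTK minus Col-0, was called for 0 of the 14, and 8 were lower at an unadjusted p under 0.05. FRK1, a kinase gene used as a marker of flagellin responses, averaged 1.44 ± 0.737 CPM in eTK control (SD, n = 6), against 9.34, 37.5, 61.6, 55.7, 81.4 and 6.88 CPM in Col-0 control. Col-0 libraries 1 and 6 were the lowest, as for CRK5 and CRK13. The log2 fold change of FRK1 was -4.94 (SE 0.70, adjusted p = 7.1e-05). FLS2, the flagellin receptor, fell in heat by 2.40 on the log2 scale in eTK and by 2.44 in Col-0, and was lower in eTK control by -0.64 (adjusted p = 0.00409). EFR, the receptor of bacterial elongation factor Tu, was lower in eTK control by -1.37, and BIK1 by -0.81. RBOHD, the oxidase that CRK2 acts on, was higher in heat in eTK (0.66) and in Col-0 (0.91), and lower in eTK control (-0.39). It was also higher in batch 2 than in batch 1, by 1.14 in eTK control and 1.21 in Col-0 control, and without the batch term its mean levels were 34.8 CPM in eTK heat, 35.7 CPM in eTK control, 54.5 CPM in Col-0 heat and 47.3 CPM in Col-0 control.

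Of 13 genes of salicylate defence, 8 were higher and 1 lower in heat in eTK (27% and 28.7% of all genes), and 3 were higher and 1 lower in Col-0 (31.2% and 32.4%). The heat response was higher in eTK for 7 and lower for 0 (12.5% and 12.6% of all genes; 0 lower also at an unadjusted p under 0.05). In control, 7 were lower in eTK and 0 higher (13.8% and 13.4% of all genes), and at an unadjusted p under 0.05, 10 and 0. Batch 2 was higher for 8 of the 13 in Col-0 control and for 2 in eTK control (15.6% and 11.7% of all genes). The batch difference, eTK minus Col-0, was called lower for 2 (2.24% of all genes in either direction), and 7 were lower at an unadjusted p under 0.05. The shared batch term is thus approximate for this list. It may be so too for the CRKs and for the pattern recognition list. Of the 14 genes of that list, 13 had a batch difference below 0, with a median of -0.39. SARD1, a regulator of salicylic acid synthesis, averaged 28.1 ± 5.37 CPM in eTK heat (n = 3), 5.14 ± 0.446 CPM in eTK control (n = 6), 9.89 ± 0.362 CPM in Col-0 heat (n = 3) and 7.48 ± 2.42 CPM in Col-0 control (n = 6). The difference of its heat responses was 2.02 (SE 0.28, adjusted p = 2.36e-05), and that of WRKY70, a transcription factor of the same pathway, was 2.17 (SE 0.63, adjusted p = 0.0172).

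The plasmodesmata-located proteins (PDLPs), which share the DUF26 domains and lack the kinase, were counted from a list of 8. In heat, 4 were lower and 0 higher in eTK (28.7% and 27% of all genes; 0 higher also at an unadjusted p under 0.05), and 2 were lower and 1 higher in Col-0 (32.4% and 31.2%). In control, 0 were lower in eTK and 1 was higher (13.8% and 13.4% of all genes), and at an unadjusted p under 0.05, 2 and 1. PDLP8 averaged 1.24 ± 0.120 CPM in eTK heat (n = 3), 2.75 ± 0.461 CPM in eTK control (n = 6), 19.2 ± 1.23 CPM in Col-0 heat (n = 3) and 3.17 ± 0.209 CPM in Col-0 control (n = 6). The difference of its heat responses was -3.74 (SE 0.20, adjusted p = 3.09e-11). PDLP1 also had a lower response in eTK, by -2.60 (SE 0.40, adjusted p = 6.98e-05).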

How the data were processed

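The authors deposited raw read counts per gene for 27655 genes in 18 Arabidopsis libraries. The submitters' processing notes name featureCounts, Subread 2.0.6, STAR 2.7.9a and fastp 0.24.0. Not given in the sources used here are the build, the strand setting and the handling of reads with several places. In each library between 75.4% and 83.3% of non-zero counts were even, so mates appear to have been counted singly. The 36 Marchantia samples were not analysed here.

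Counts were tested with edgeR 4.0.16 in R 4.3.3 (filterByExpr, TMM, robust glmQLFit and glmQLFTest) on 22696 genes, with 1 term per group and a shared batch term (common dispersion 0.0244). Batch comparisons used 1 term per group and batch. A gene was called where its p, adjusted after Benjamini and Hochberg over all tested genes, was below 0.05. Shares of all genes at an unadjusted p are not given, so counts of members or list genes at that threshold are a description. SE is the absolute log2 fold change over the square root of F, and may be too small where counts are near 0. The scripts were checked on simulated counts.

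The members and lists were chosen with earlier results of these data known. Full values were given for up to 5 called members per comparison (3 for batch) with the largest change and a higher group of at least 1 CPM, and for CRK2, CRK4, CRK5, CRK6, CRK7, CRK10, CRK13, CRK20, CRK28, CRK29 and CRK36. CRK11, CRK14, CRK18, CRK31 and CRK39 were partly described after their values were seen. Of the table's identifiers, 27445 matched TAIR10.1, the source of positions and sequences. Senescence and seed markers were read too. SAG12 was at 0 counts. SAG13 lay between 0.443 and 1.42 CPM in eTK heat and between 0.0224 and 3.07 CPM in eTK control. In Col-0 it lay between 0 and 0.106 CPM in heat and between 0.0424 and 2.27 CPM in control. Batch 2 was called higher for SAG13 in Col-0 control (2.43) and lower in eTK control (-4.01). The 2 seed markers summed to between 5.89 and 18.1 CPM in eTK heat and 4.43 and 37.2 in eTK control. In Col-0 heat they summed to between 0.132 and 52.7 CPM, and in Col-0 control to between 0.135 and 1.53.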

Additional observations from a re-analysis of the deposited data

Results flagged for a closer look

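In 5 of 74 groups of 6 control libraries, a single library stood apart from the others by Dixon's test at the 95% level, where chance gives about 1 in 20. CRK36 had 1.11 CPM in eTK control library 1, with the next value at 0.549 CPM. CRK14 had 3.68 CPM in eTK control library 6, with the next at 2.71 CPM. Col-0 control library 6 stood apart in 3 members, with 71.1 CPM for CRK40 (next 46.2), 84.6 CPM for CRK30 (next 52.4) and 31.5 CPM for CRK42 (next 15.9).

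The heat response differed between the lines for 2 members by the interaction test. CRK31 had a difference, eTK minus Col-0, of -3.03 on the log2 scale, and CRK42 of 0.90.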

How the results depend on the processing

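The settings tried were other scalings, filters and batch terms, DESeq2 1.42.0, halved counts, a replicate block and the removal of each library. Over members and settings, 4815 values kept direction and side of the threshold, 116 gained a call, 135 lost one and 8 turned round. The 8 turned with library size alone, where the medians of all genes were -0.75, 0.63 and 0.64 for heat in Col-0, the interaction and eTK against Col-0 in heat: CRK18 for heat in Col-0 (-0.0069), CRK29 (0.43) and CRK17 (0.50) for the interaction, and CRK2 (0.47), CRK3 (0.51), CRK40 (0.44), CRK28 (0.44) and CRK19 (0.15) for eTK against Col-0 in heat. That setting called 1 member higher for heat in Col-0, 17 higher for the interaction, and 9 higher and 3 lower for eTK against Col-0 in heat. The shares of all genes were 8.2%, 63.1%, 67.3% and 7.35%. For heat in Col-0, 1 was higher with a mean of at least 1 CPM (6639 of 19581 genes) or no batch term (6357 of 22696). For heat in eTK, 1 was higher with RLE factors, batch 1 alone, a term per group and batch, the replicate block or DESeq2. Of all genes, 5957 to 6683 were higher in these settings. For the interaction, DESeq2 called 4 higher and 2 lower, against 3243 and 3269 of 23750 genes. It was 0 higher with no batch term (2007 of 22696 genes) or a term per group and batch (2177 of 22696). It was 0 lower with a mean of at least 1 CPM, no batch term or halved counts (2718 of 19581, 1937 of 22696 and 2700 of 22006 genes). It was 2 lower with batch 1 alone, a term per group and batch or the replicate block (2279 of 22341, 2307 of 22696 and 2612 of 22696 genes). In control, 13 were lower with a mean of at least 1 CPM, 11 with batch 1 alone and 12 with a term per group and batch. Of all genes, 2649 of 19581, 2403 of 22341 and 2482 of 22696 were. With no batch term or batch 2 alone 0 members were higher (1933 of 22696 and 1223 of 22067 genes). Genotype by batch called 1 with the 12 control libraries alone, where 537 of 21927 genes were higher and 798 lower. The causes were not tested, beyond fewer genes or libraries in some settings. Leaving out each library gave 15 to 22 lower and 0 to 1 higher for heat in eTK, 18 to 26 and 2 to 2 for heat in Col-0, 0 to 2 lower and 0 to 6 higher for the interaction, 9 to 14 and 1 to 1 for the lines in heat, 17 to 22 and 1 to 1 in control, 4 to 8 called for batch in eTK, 6 to 13 for batch in Col-0 and 0 to 2 for genotype by batch. Among all genes, the interaction then had 2360 to 2975 higher and 2271 to 2967 lower. With the replicate block, 20 members were lower in heat in eTK, 24 in Col-0, 18 in control and 13 between the lines in heat. Of all 22696 genes, 6339, 7226, 2885 and 4984 were. Over 21 pairs of same-numbered libraries, correlations lay between -0.217 and 0.232, and 3 were over 0.1, so the numbers are not taken to pair the libraries. The fit on the control libraries alone was chosen after seeing the data. Members under about 1 CPM are limited by depth.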
